A study of Homo sapiens with 6 samples.

Results

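The human matrix metalloproteinases (MMP), the ADAMTS proteinases and the tissue inhibitors of metalloproteinases (TIMP) were followed in TPC-1 cells with and without overexpressed *RRM2*. A gene was taken as a member when the deposited table marked it protein-coding and its symbol began with MMP, ADAMTS or TIMP and a digit. This gave 47 of 19951 protein-coding genes, out of 58735 genes in all: 23 *MMP* genes, 19 *ADAMTS* genes, 4 *TIMP* genes and *MMP24OS*. *MMP24OS* lies on the strand opposite *MMP24* and does not encode a metalloproteinase. The proteins similar to ADAMTS that lack the catalytic domain (ADAMTSL) were not members.

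MMPs are zinc-dependent endopeptidases that cut collagens, other matrix proteins and many cell-surface proteins. Most are secreted as inactive proenzymes, and the membrane-type MMPs stay on the cell surface. ADAMTS proteinases are secreted and cut proteoglycans, procollagens and a few blood and microfibril proteins. TIMPs bind the active site of these enzymes. In thyroid carcinoma, as in other carcinomas, MMPs are studied for their part in remodeling the matrix around invading cells.

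TPC-1 is a line of human papillary thyroid carcinoma cells. The 3 libraries of the wild strain (TPC-1) had the genotype label WT, and the 3 libraries of *RRM2*-OE-TPC-1 came from TPC-1 cells infected with a lentivirus, in which a CMV promoter drives full-length *RRM2* (a subunit of ribonucleotide reductase), and selected with puromycin. The comparison asks what the overexpression changed in the transcriptome. The wild strain is not described as having received an empty vector or puromycin, so infection, selection and *RRM2* cannot be told apart here. Whether the *RRM2*-OE-TPC-1 cells were 1 clone was not stated, and the genotype labels of replicates 2 and 3 read RRM3 and RRM4 where their titles read RRM2. *RRM2* itself was at 9.17, 9.05 and 8.52 FPKM (fragments per kilobase of exon, scaled to sequencing depth) in TPC-1 and at 50.4, 47.5 and 47.2 FPKM in *RRM2*-OE-TPC-1, a log2 fold change of 2.43 (SE 0.0442, adjusted p = 1.11e-08). Transcripts of the inserted copy and of the gene itself were not separated.

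The libraries held 14317091 to 17084067 reads on genes, recovered from the FPKM values as whole numbers. Of the thyroid markers, *PAX8* was at 69.3 ± 1.84 FPKM (SD, n = 3) in TPC-1 against 58.5 ± 1.92 in *RRM2*-OE-TPC-1 and *FOXE1* at 4.30 and 3.19 FPKM, whereas *NKX2-1* had no read and *TG* and *TSHR* had at most 20 reads in a library. The epithelial keratin *KRT18* was at 41.2 and 85.2 FPKM, *KRT8* at 2.56 and 3.48 FPKM and *KRT7* at 1.18 and 1.01 FPKM (adjusted p = 0.169 for *KRT7*), and *EPCAM*, *CDH1* and *KRT19* had at most 9 reads. Among 7 fibroblast markers, *COL1A2*, *COL3A1* and *DCN* had no read, and *LUM* and *PDGFRA* had at most 5 in a library. *COL1A1* fell from 0.816 to 0.501 FPKM (adjusted p = 0.0129), and *PDGFRB* was at 2.12 and 2.37 FPKM (adjusted p = 0.223). The summed level of the list was 2.79 to 3.19 FPKM in TPC-1 and 2.79 to 2.96 FPKM in *RRM2*-OE-TPC-1. None of 6 macrophage and neutrophil markers passed the filter on low values. *PTPRC* and *CD163* had at most 1 read in a library, and *MPO* had none. *CD14* reached 13 reads, and its mean level was lower with overexpression, 0.146 against 0.386 FPKM, without overlap of the groups. *ELANE* (at most 6 reads) was lower and *CSF1R* (at most 9) higher by mean, both with overlap. This list summed to 0.215 to 0.304 FPKM in the overexpressing cells, below the 0.431 to 0.826 FPKM of the wild strain. Of 4 endothelial markers, *PECAM1* fell from 0.924 to 0.0588 FPKM, while *TEK*, below the filter, was at 0.261 and 0.397 FPKM, *KDR* had no read and *CDH5* at most 1. The summed level of the endothelial list was 1.08 to 1.35 FPKM in TPC-1 libraries and 0.417 to 0.502 FPKM in *RRM2*-OE-TPC-1 libraries, and that of the epithelial list 42.9 to 47.1 and 88.4 to 90.8 FPKM, nearly all of it *KRT18*. What part these markers had in the results below was not tested. In bulk libraries, fewer cells that express a gene and less of its RNA per cell cannot be told apart.

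Members were tested in a fit over all 13621 genes that had at least 0.5 FPKM and 10 reads in at least 3 libraries. limma was applied to log2(FPKM + 0.1), so every log2 fold change below is on that scale, which understates the change of low genes, and every adjusted p is limma's with Benjamini-Hochberg adjustment over those genes. "Rose" and "fell" are used of genes whose adjusted p was at most 0.05, and a gene was called differentially expressed when its absolute log2 fold change was also at least 1. The design speaks of biological triplicates and does not say whether they were separate cultures, so the p-values measure the spread between these libraries, which may be technical.

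Of the 47 members, 23 were tested, and 9 of them (39.1%) were differentially expressed, against 11.5% of all tested genes. *MMP2*, *ADAMTS10*, *ADAMTS15*, *ADAMTS13* and *MMP28* were lower in *RRM2*-OE-TPC-1 (5 of 23, 21.7%, against 6.97% of all tested genes). *MMP1*, *ADAMTS6*, *ADAMTS1* and *ADAMTS16* were higher (4 of 23, 17.4%, against 4.48%). By adjusted p alone, 20 of the 23 passed (87.0%, against 67.6% of all tested genes). Of these, 10 rose, against 34.9% of all tested genes, and 10 fell, against 32.7%, while *MMP14*, *MMP16* and *ADAMTS14* did not pass. The FPKM of the 3 libraries of one group did not overlap those of the other for 22 of the 23, against 72.2% of all tested genes, and *ADAMTS14* was the exception. *MMP1* reached the minimum in the *RRM2*-OE-TPC-1 libraries and in no TPC-1 library, and *ADAMTS13* in all TPC-1 libraries and 1 *RRM2*-OE-TPC-1 library, so the filter favored a difference for both. The other 21 passed it in all 6 libraries.

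**Figure D1:**
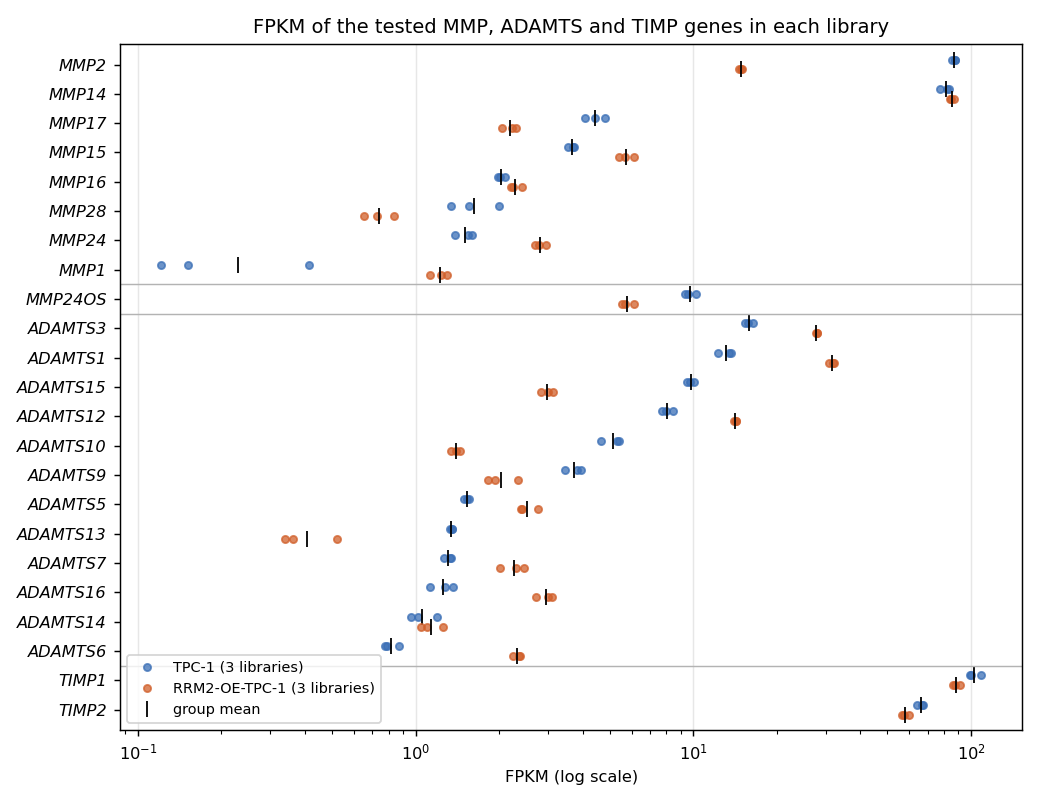
FPKM of the 23 tested genes in each of the 6 libraries, on a log axis, with 1 point per library (blue, TPC-1; orange, *RRM2*-OE-TPC-1) and a black bar for the group mean. *MMP2* lies at 85.3 to 87.3 FPKM in TPC-1 and 14.6 to 15.0 FPKM in *RRM2*-OE-TPC-1, while *MMP14* lies between 77.3 and 87.1 FPKM throughout.

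The member with the largest fall was *MMP2* (ENSG00000087245, chr16:55389700-55506691, GRCh38), which encodes gelatinase A, an enzyme of type IV collagen and denatured collagen. It was at 87.3, 87.2 and 85.3 FPKM in the TPC-1 libraries and at 15.0, 14.6 and 14.8 FPKM in the *RRM2*-OE-TPC-1 libraries. The groups lay far apart and the spread within each was small, 86.6 ± 1.15 against 14.8 ± 0.191 (SD, n = 3). The level was thus 5.86-fold lower, with a log2 fold change of -2.54 (SE 0.0305, adjusted p = 2.91e-09). By p-value *MMP2* ranked 2 among the 13621 tested genes, and by the size of the decrease it ranked 73. Among all genes of the table it went from rank 330 to rank 3061 by mean FPKM.

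The other gelatinase gene, *MMP9* (ENSG00000100985, chr20:46008908-46016561), reached the 0.5 FPKM minimum in only 1 library and was not tested. It had 5, 2 and 7 reads (0.128, 0.0509 and 0.188 FPKM) in TPC-1 and 14, 10 and 19 reads (0.415, 0.250 and 0.510 FPKM) in *RRM2*-OE-TPC-1. Every *RRM2*-OE-TPC-1 library was above every TPC-1 library. Scaled to the depth used for FPKM, the summed count was 3.20-fold higher (exact 95% interval 1.72 to 6.33, which covers counting error only). Without the filter on low values its log2 fold change was 1.16, with an adjusted p of 0.0724. An exact two-sided permutation test of the group means of log2(FPKM + 0.1) gave p = 0.1, the smallest value that 3 against 3 libraries allow. The level of *MMP9* was below that of *MMP2* in every library. By Western blot the study reported more MMP2 and MMP9 protein in *RRM2*-OE-TPC-1 than in the control. It also reported less of both proteins after knockdown of *RRM2*, for which there is no library here. For *MMP2* the RNA level in *RRM2*-OE-TPC-1 was lower instead, and protein was not measured in these libraries.

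A cluster on chromosome 11 (chr11:102520508-102955734) holds 9 members, among them the genes of secreted collagenases and of stromelysin-1 and stromelysin-2. *MMP1* (ENSG00000196611, chr11:102789920-102798160, minus strand), which encodes interstitial collagenase, had 5, 4 and 13 reads in TPC-1 (0.152, 0.121 and 0.414 FPKM) and 37, 38 and 39 reads in *RRM2*-OE-TPC-1 (1.30, 1.13 and 1.24 FPKM). TPC-1 replicate 3 stood above the other TPC-1 libraries but below every *RRM2*-OE-TPC-1 library. The log2 fold change was 2.11 (SE 0.311, adjusted p = 4.40e-04), with the largest SE among the tested members. Scaled to the depth used for FPKM, the summed reads were 5.39-fold higher (exact 95% interval 3.40 to 8.94). This interval covers counting error only and leaves out the spread between libraries. Without TPC-1 replicate 3 the log2 fold change was 2.48 (adjusted p = 4.16e-05).

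The other 8 genes of the cluster had no read in any TPC-1 library and 5, 7 and 8 reads in all in the 3 *RRM2*-OE-TPC-1 libraries. *MMP3*, which encodes stromelysin-1, had 4, 5 and 2 of these. The summed *MMP3* count, scaled to the depth used for FPKM, was 3.82-fold that of 3 reads, the upper limit taken for a count of 0. This ratio leaves out the counting error of the *RRM2*-OE-TPC-1 reads, so it is not a lower bound. *MMP10* (stromelysin-2) had 3 reads, all in replicate 3, *MMP8* (neutrophil collagenase) 2, and *MMP7* (matrilysin), *MMP12* (macrophage elastase), *MMP13* (collagenase 3) and *MMP20* (enamelysin) 1 each. *MMP27* had none. At this depth a change of any of these 7 genes could not be detected. *WTAPP1*, a pseudogene on the opposite strand, shares 7.61% of the exon bases of *MMP1* and 1.56% of those of *MMP3*. It was named after its values were seen: it had 0 reads in every TPC-1 library and 3, 9 and 7 in *RRM2*-OE-TPC-1. Whether reads were shared between *WTAPP1* and these 2 genes was not tested.

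**Figure D2:**
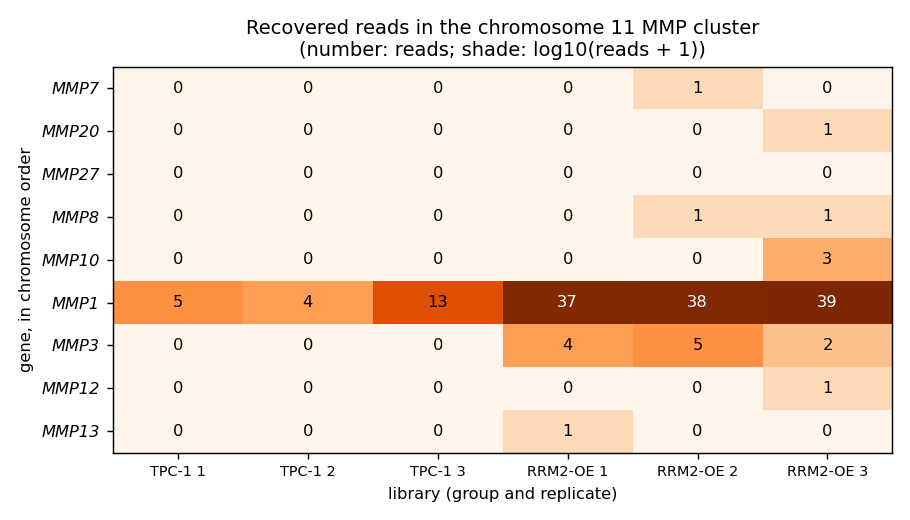
Recovered reads of the 9 genes of the chromosome 11 cluster (rows, in chromosome order) in each library (columns), with darker shades for more reads on a log scale. *MMP1* has 4 to 13 reads in TPC-1 and 37 to 39 in *RRM2*-OE-TPC-1, and the other 8 genes have 0 reads in TPC-1 and 20 in all in *RRM2*-OE-TPC-1.

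Among the membrane-type enzymes, *MMP14* (MT1-MMP), which together with TIMP2 activates the proenzyme of MMP2 at the cell surface, was at 83.6, 77.3 and 81.9 FPKM in TPC-1 and 87.1, 84.2 and 85.0 FPKM in *RRM2*-OE-TPC-1. The groups lay side by side without overlapping, with a log2 fold change of 0.08 (SE 0.0380) that did not pass (adjusted p = 0.0999). Its adjusted p ranged from 0.0497, with voom on recovered reads, to 0.639 over the alternative settings, at log2 fold changes of 0.02 to 0.10. The ratio of *MMP14* to *MMP2* on the FPKM scale went from 0.935 ± 0.0423 to 5.78 ± 0.0306 (SD, n = 3).

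Of the other transmembrane enzymes, *MMP15* (MT2-MMP) rose from 3.65 to 5.73 FPKM (log2 fold change 0.64, adjusted p = 6.63e-05) and *MMP24* (MT5-MMP) from 1.51 to 2.81 FPKM (0.86, adjusted p = 6.66e-05). *MMP16* (MT3-MMP) was at 2.03 and 2.29 FPKM (log2 fold change 0.17, adjusted p = 0.108). Its adjusted p ranged from 0.0365, with voom on recovered reads, to 0.275 over the alternative settings. Both enzymes anchored to the membrane by a glycolipid were lower in FPKM. *MMP17* (MT4-MMP) was at 4.07, 4.41 and 4.81 FPKM in TPC-1 and 2.23, 2.30 and 2.05 in *RRM2*-OE-TPC-1, and fell with a log2 fold change of -0.98 (SE 0.0866, adjusted p = 2.32e-05), just short of the fold threshold. *MMP25* (MT6-MMP), below the filter, had 27, 29 and 23 reads against 13, 11 and 15. Scaled to the depth used for FPKM, this was a ratio of 0.514 (exact 95% interval 0.341 to 0.763 for counting error only, exact two-sided permutation p = 0.1). Of its exon bases, 35.2% are shared with *MMP25-AS1* on the opposite strand, which fell (log2 fold change -1.32, adjusted p = 2.97e-05). The library kit kept strand information, and whether the counting used it was not stated.

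*MMP24* and *MMP24OS* also overlap, over 799 exon bases (18.1% of *MMP24* and 14.5% of *MMP24OS*), and they moved in opposite directions. *MMP24OS* was at 10.2, 9.35 and 9.54 FPKM in TPC-1 and 5.54, 6.14 and 5.66 FPKM in *RRM2*-OE-TPC-1, with no overlap of the groups (log2 fold change -0.74, adjusted p = 1.35e-05). The ratio of *MMP24* to *MMP24OS* in FPKM went from 0.156 ± 0.00919 to 0.488 ± 0.0401 (SD, n = 3).

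*MMP28* (ENSG00000271447, chr17:35756249-35795707, minus strand), which encodes epilysin, was the member just inside the fold threshold. It was at 1.99, 1.56 and 1.34 FPKM in TPC-1 and 0.726, 0.654 and 0.835 FPKM in *RRM2*-OE-TPC-1, from 30 to 95 reads a library. TPC-1 replicate 1 was the highest and the groups did not overlap, with a log2 fold change of -1.03 (SE 0.167, adjusted p = 7.50e-04). Without TPC-1 replicate 1 it was -0.89 and without *RRM2*-OE replicate 2 it was -0.96, both short of the fold threshold.

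**Figure D3:**
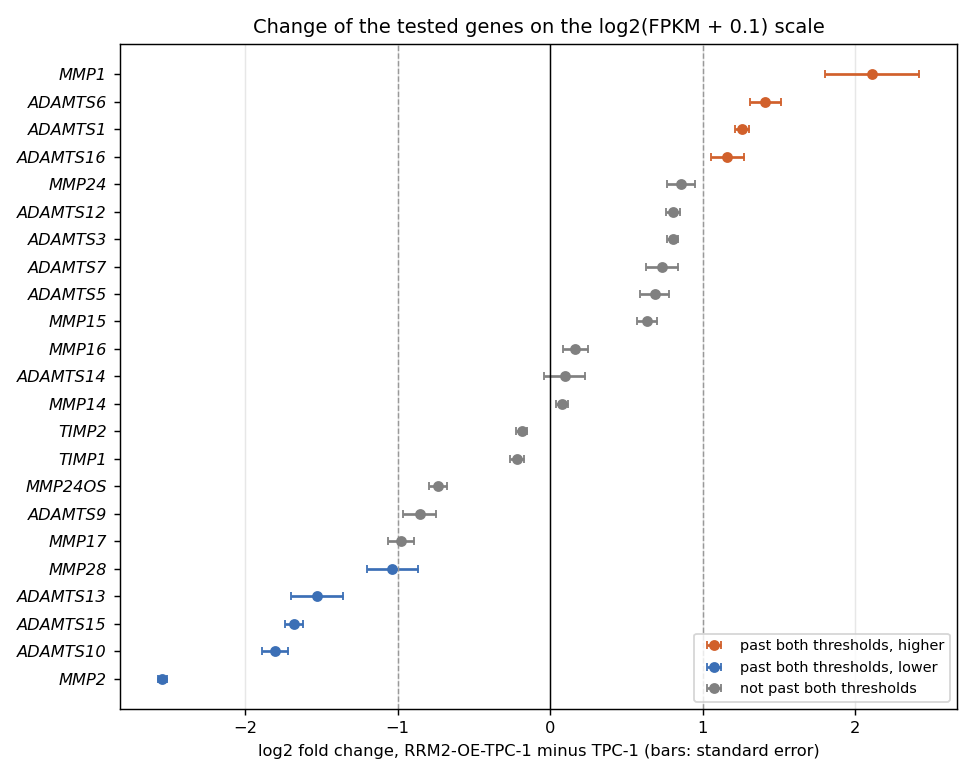
Log2 fold change (*RRM2*-OE-TPC-1 minus TPC-1, on log2(FPKM + 0.1)) of the 23 tested genes, sorted, with bars for the standard error and dashed lines at -1 and 1. The 4 orange points (*MMP1*, *ADAMTS6*, *ADAMTS1*, *ADAMTS16*) and the 5 blue points (*MMP28*, *ADAMTS13*, *ADAMTS15*, *ADAMTS10*, *MMP2*) are past both thresholds.

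Of the 19 *ADAMTS* genes 12 were tested, of which 7 rose and 4 fell, where 34.9% of all tested genes rose and 32.7% fell. Of the 12, 3 were differentially expressed and higher and 3 lower, where the shares of all tested genes were 4.48% and 6.97%. The sharpest contrast lay within a pair. *ADAMTS10* and *ADAMTS6* encode closely related enzymes that associate with fibrillin microfibrils, and *ADAMTS10* is a gene of Weill-Marchesani syndrome. *ADAMTS10* (ENSG00000142303, chr19:8580242-8610735, minus strand) was at 5.31, 5.42 and 4.64 FPKM in TPC-1 and 1.40, 1.44 and 1.34 FPKM in *RRM2*-OE-TPC-1. It was 3.68-fold lower with no overlap (log2 fold change -1.80, SE 0.0862, adjusted p = 9.38e-07). *ADAMTS6* (ENSG00000049192, chr5:65148736-65481920, minus strand) was at 0.790, 0.777 and 0.872 FPKM in TPC-1 and 2.38, 2.35 and 2.24 FPKM in *RRM2*-OE-TPC-1. It was 2.86-fold higher, again with no overlap (log2 fold change 1.41, SE 0.102, adjusted p = 7.66e-06). The ratio of *ADAMTS6* to *ADAMTS10* in FPKM went from 0.160 ± 0.0242 to 1.67 ± 0.0394 (SD, n = 3), so the more abundant member of the pair was *ADAMTS10* in TPC-1 and *ADAMTS6* in *RRM2*-OE-TPC-1.

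The promoters of this pair are shown because the genes moved in opposite directions, beside those of *ADAMTS12*, which rose, and *MMP10* of the chromosome 11 cluster. Each runs 5′ to 3′ on the minus strand, from 250 bases before to 50 bases after the transcript start (RefSeq, GRCh38.p14), in lower case. Capitals mark TGANTCA, a loose form of the AP-1 letters that allows any middle base, and TATAAA, the TATA box letters, on either strand. They lie at chr5:65481871-65482170 (*ADAMTS6*), chr19:8610666-8610965 (the upstream of 2 entries of *ADAMTS10*), chr5:33891941-33892240 (*ADAMTS12*) and chr11:102780579-102780878 (*MMP10*).
ADAMTS6: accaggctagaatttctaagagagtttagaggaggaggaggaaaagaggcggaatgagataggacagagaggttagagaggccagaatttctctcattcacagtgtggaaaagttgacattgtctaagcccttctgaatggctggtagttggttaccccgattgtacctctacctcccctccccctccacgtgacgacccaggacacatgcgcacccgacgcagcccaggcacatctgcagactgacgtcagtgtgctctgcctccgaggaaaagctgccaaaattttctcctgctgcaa
ADAMTS10: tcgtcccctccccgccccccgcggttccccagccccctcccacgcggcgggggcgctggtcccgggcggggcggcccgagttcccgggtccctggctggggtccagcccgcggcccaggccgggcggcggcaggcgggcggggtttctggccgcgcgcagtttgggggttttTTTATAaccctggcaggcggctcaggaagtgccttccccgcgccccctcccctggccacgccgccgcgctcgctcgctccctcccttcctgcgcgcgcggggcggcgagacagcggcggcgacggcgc
ADAMTS12: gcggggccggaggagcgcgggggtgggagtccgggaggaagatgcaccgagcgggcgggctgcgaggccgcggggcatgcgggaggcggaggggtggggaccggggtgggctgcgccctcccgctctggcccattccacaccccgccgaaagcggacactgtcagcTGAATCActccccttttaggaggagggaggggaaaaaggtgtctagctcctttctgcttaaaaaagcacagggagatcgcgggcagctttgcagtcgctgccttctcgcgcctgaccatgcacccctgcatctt
MMP10: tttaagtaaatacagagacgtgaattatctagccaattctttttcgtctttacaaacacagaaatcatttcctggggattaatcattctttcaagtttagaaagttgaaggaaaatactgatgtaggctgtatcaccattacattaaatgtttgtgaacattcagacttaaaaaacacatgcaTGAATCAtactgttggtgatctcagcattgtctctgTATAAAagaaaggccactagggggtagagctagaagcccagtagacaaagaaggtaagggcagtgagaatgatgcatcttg

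The promoter of *MMP10* held both sets of letters, at -67 (TGANTCA) and -31 (TATAAA) counted from the start, *ADAMTS12* held TGANTCA at -84, *ADAMTS10* held the TATA box letters on its other strand at -78, and *ADAMTS6* held neither. The promoter table had entries for 28 of the 47 members. *MMP2*, *MMP1*, *ADAMTS1*, *ADAMTS15*, *ADAMTS16* and *MMP28* were not among them. TGANTCA, which reads the same on both strands, was found in 4 members (*ADAMTS12*, *MMP7*, *MMP10*, *MMP20*) and in 7.71% of all 35116 entries. Of the 12 tested members with an entry, *ADAMTS12* was the only 1 that held it. TATAAA, searched on both strands, was found in 7 members and in 11.5% of all entries. Of the 5 entries within the chromosome 11 cluster, 3 held TGANTCA and 4 held TATAAA. Their GC content was 33.3% to 44.3%, against 52.0% to 80.0% for the 12 tested members with an entry and a median of 58.7% over all entries. A match is a description of the letters and not a site in use.

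The proteoglycanases, which cut versican and aggrecan, also moved in both directions. *ADAMTS15* (ENSG00000166106, chr11:130448974-130476641, plus strand) was at 9.46, 10.1 and 9.77 FPKM in TPC-1 and 3.12, 2.83 and 3.00 FPKM in *RRM2*-OE-TPC-1. It was 3.27-fold lower with no overlap (log2 fold change -1.68, SE 0.0593, adjusted p = 2.26e-07). *ADAMTS1* (ENSG00000154734, chr21:26835747-26845409, minus strand) was at 13.7, 13.4 and 12.3 FPKM in TPC-1 and 31.9, 30.7 and 32.1 FPKM in *RRM2*-OE-TPC-1. It was 2.40-fold higher (log2 fold change 1.26, SE 0.0479, adjusted p = 3.06e-07), and in *RRM2*-OE-TPC-1 it was the most abundant *ADAMTS* transcript. The ratio of *ADAMTS1* to *ADAMTS15* in FPKM went from 1.35 ± 0.0942 to 10.6 ± 0.332 (SD, n = 3). *ADAMTS5* (aggrecanase-2), the neighbor of *ADAMTS1* on chromosome 21 and on the same strand, rose from 1.53 to 2.52 FPKM (log2 fold change 0.68, adjusted p = 2.81e-04). *ADAMTS9*, in contrast, fell from 3.74 to 2.03 FPKM (-0.86, adjusted p = 1.72e-04), and *ADAMTS4* (aggrecanase-1), *ADAMTS8* and *ADAMTS20* had at most 4 reads in a library. Summed over the class, the proteoglycanases were at 28.2 ± 0.816 FPKM in TPC-1 and 39.1 ± 1.15 FPKM in *RRM2*-OE-TPC-1. *ADAMTS1* alone made up 13.2 and 31.6 FPKM of these sums, while *ADAMTS15* and *ADAMTS9* fell.

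Of the procollagen N-proteinases, which remove the amino-terminal propeptide of fibrillar procollagens, *ADAMTS3* was the most abundant. *ADAMTS3*, also known for activating VEGF-C, was at 15.4, 15.8 and 16.4 FPKM in TPC-1 and 27.6, 27.8 and 27.8 FPKM in *RRM2*-OE-TPC-1. Its groups lay well apart, and it rose with a log2 fold change of 0.80 (SE 0.0364, adjusted p = 7.22e-07). *ADAMTS14* was the only tested member whose libraries overlapped between groups, at 1.06 ± 0.120 and 1.14 ± 0.110 FPKM (SD, n = 3; log2 fold change 0.10, adjusted p = 0.545), and *ADAMTS2* had at most 4 reads. Both enzymes that cut cartilage oligomeric matrix protein rose, *ADAMTS12* from 8.06 to 14.2 FPKM (0.81, adjusted p = 2.45e-06) and *ADAMTS7* from 1.31 to 2.26 FPKM (0.73, adjusted p = 3.48e-04). Reads of *ADAMTS7* could be split with its near copies *ADAMTS7P1*, *ADAMTS7P3* and *ADAMTS7P4*, which had at most 16 reads in a library.

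*ADAMTS13* (ENSG00000160323, chr9:133414358-133459402, plus strand), the protease of von Willebrand factor, was at 1.35, 1.33 and 1.35 FPKM in TPC-1 and 0.339, 0.522 and 0.363 FPKM in *RRM2*-OE-TPC-1. All 3 *RRM2*-OE-TPC-1 libraries were below the TPC-1 libraries, from 28 to 51 reads against 123 to 129, and it was 3.30-fold lower (log2 fold change -1.53, SE 0.169, adjusted p = 8.44e-05). *ADAMTS16* (ENSG00000145536, chr5:5140330-5320304, plus strand) was at 1.37, 1.13 and 1.28 FPKM in TPC-1 and 3.01, 3.11 and 2.71 FPKM in *RRM2*-OE-TPC-1. It was 2.33-fold higher with no overlap (log2 fold change 1.16, SE 0.106, adjusted p = 2.71e-05). *ADAMTS17*, below the filter, had 14, 6 and 9 reads in TPC-1 and 32, 35 and 31 in *RRM2*-OE-TPC-1. Scaled to the depth used for FPKM, this was 3.52-fold more (exact 95% interval 2.30 to 5.52 for counting error only, exact two-sided permutation p = 0.1).

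Both tested inhibitors fell by less than the fold threshold. *TIMP1*, which inhibits most secreted MMPs, was at 109, 99.2 and 100 FPKM in TPC-1 and 86.2, 87.8 and 91.1 FPKM in *RRM2*-OE-TPC-1. The groups did not overlap, and it fell with a log2 fold change of -0.22 (SE 0.0438, adjusted p = 0.0026). *TIMP2*, which also links proMMP2 to MT1-MMP, was at 67.4, 63.8 and 66.4 FPKM in TPC-1 and 59.8, 56.5 and 57.5 FPKM in *RRM2*-OE-TPC-1, and fell with a log2 fold change of -0.19 (SE 0.0363, adjusted p = 0.00218). *TIMP3*, the inhibitor that binds the matrix and the one best known for inhibiting ADAMTS enzymes, had no read in any library, and *TIMP4* had 5 reads in 1 *RRM2*-OE-TPC-1 library and 0 elsewhere.

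The remaining members were at or near 0. *MMP19* had 12, 9 and 4 reads in TPC-1 and 10, 15 and 20 in *RRM2*-OE-TPC-1, which overlapped (exact two-sided permutation p = 0.2). Of the 24 untested members, *TIMP3*, *MMP26* and *MMP27* had no read and another 17 had under 10 reads in every library. Besides those already named, these were *MMP11* (at most 2 reads), *MMP21* (2), *MMP23B* (3), *ADAMTS18* (7) and *ADAMTS19* (2).

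Added up on the FPKM scale, the *MMP* sum was lower in *RRM2*-OE-TPC-1 and the *ADAMTS* sum higher, each governed by its most abundant genes. The *MMP* sum was 185, 179 and 182 FPKM in TPC-1 and 119, 114 and 116 FPKM in *RRM2*-OE-TPC-1. *MMP2* supplied 47.7% ± 1.02 of it in TPC-1 against 12.7% ± 0.0889 in *RRM2*-OE-TPC-1 (SD, n = 3), and *MMP14* 44.5% ± 1.09 and 73.5% ± 0.258. Without *MMP2* the sum was 95.1 ± 3.29 FPKM in TPC-1 and 101 ± 2.12 FPKM in *RRM2*-OE-TPC-1. The *ADAMTS* sum was 63.5, 63.9 and 62.0 FPKM against 92.4, 91.2 and 91.8 FPKM, and the *TIMP* sum was 176, 163 and 167 FPKM against 146, 145 and 149 FPKM. No group overlapped the other in any of these 3 family sums. The sums are given as a description, without a test.

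The ratio of the *TIMP* sum to the *MMP* sum was 0.928 ± 0.0217 in TPC-1 against 1.26 ± 0.0264 in *RRM2*-OE-TPC-1 (SD, n = 3). Without *MMP2* in the denominator the order turned, to 1.77 ± 0.0381 and 1.44 ± 0.0313. These are sums of transcript levels and say nothing of protein or activity.

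**Figure D4:**
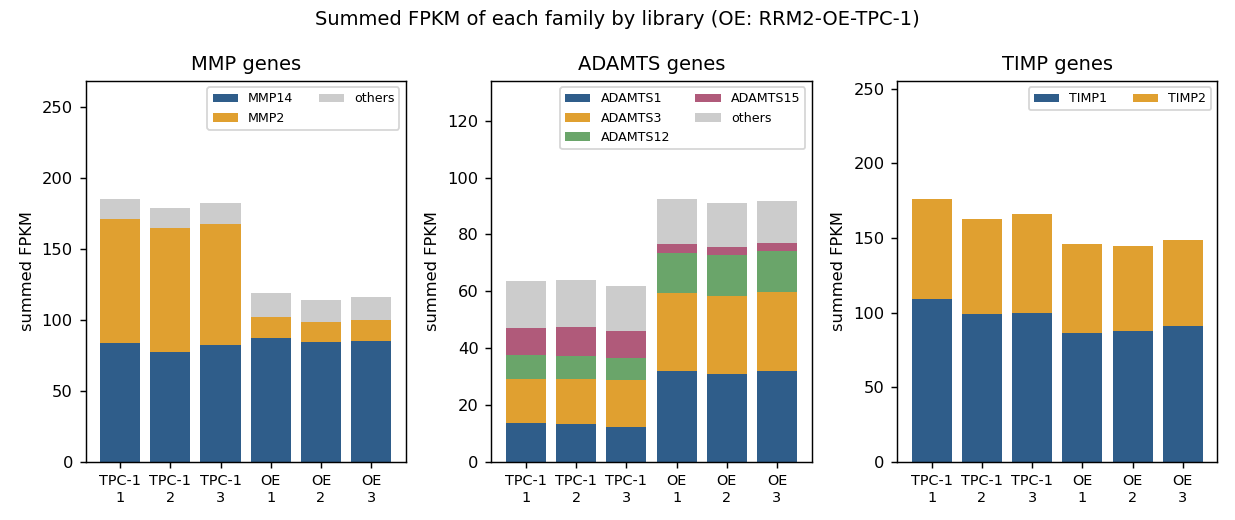
Summed FPKM of the *MMP*, *ADAMTS* and *TIMP* genes in each library, stacked by gene, with the genes not named in grey and each panel on its own axis from 0. The *MMP* bars drop from 179 to 185 FPKM to 114 to 119 FPKM as the *MMP2* part shrinks, the *ADAMTS* bars go from 62.0 to 63.9 FPKM to 91.2 to 92.4 FPKM, and the *TIMP* bars from 163 to 176 FPKM to 145 to 149 FPKM.

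Genes that act with these families were counted from lists of known partners. In the plasminogen system, whose protease plasmin can activate several proMMPs, 10 of 14 genes were tested, and 4 were differentially expressed, all higher, where 4.48% of all tested genes were. *PLAU* (urokinase) was at 59.6 ± 4.45 FPKM in TPC-1 and 139 ± 3.91 FPKM in *RRM2*-OE-TPC-1 (log2 fold change 1.23, adjusted p = 6.66e-07), and its receptor gene *PLAUR* at 4.54 and 13.0 FPKM (1.50, adjusted p = 2.88e-07). The inhibitor gene *SERPINE2* (protease nexin-1) rose from 1.76 to 4.53 FPKM (1.32, adjusted p = 2.44e-06), and *PLG*, which encodes plasminogen, had no read. The median log2 fold change of the 10 was 0.68, against 0.01 over all tested genes.

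Of 7 proprotein convertases, which remove the propeptides of membrane-type MMPs and ADAMTS enzymes, 3 were tested and *PCSK4* was differentially expressed (1.83 to 0.507 FPKM, log2 fold change -1.67, adjusted p = 2.86e-05). *FURIN*, the most abundant, fell from 23.0 to 17.2 FPKM (-0.42, adjusted p = 3.08e-04), and *PCSK7* rose from 1.18 to 1.70 FPKM (0.50, adjusted p = 0.00276). Of 12 membrane-bound ADAM proteases, 6 were tested and *ADAM19* was differentially expressed (6.92 to 14.8 FPKM, 1.08, adjusted p = 2.33e-07). Of 7 ADAMTS-like genes, 6 were tested. *ADAMTSL1* was higher (1.79 to 5.50 FPKM, 1.56, adjusted p = 9.00e-07) and *PAPLN* lower (0.860 to 0.281 FPKM, -1.34, adjusted p = 1.67e-04). For comparison with these short lists, 11.5% of all tested genes were differentially expressed.

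Of 18 other regulators 12 were tested, of which 2 were differentially expressed and higher and 1 lower, where 4.48% and 6.97% of all tested genes were. *SDC1* (syndecan-1, a cell-surface proteoglycan) was higher at 16.6 and 55.5 FPKM (1.73, adjusted p = 4.92e-08), *TFPI2* (a serine protease inhibitor of the matrix) at 5.31 and 14.7 FPKM (1.46, adjusted p = 5.24e-06), and *SLPI* (secretory leukocyte protease inhibitor) was lower at 374 and 137 FPKM (-1.45, adjusted p = 1.54e-06). *RECK*, a membrane-anchored inhibitor of MMPs, was at 2.06 and 2.15 FPKM (log2 fold change 0.06, adjusted p = 0.556).

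Of 20 substrates of ADAMTS enzymes 10 were tested, of which 3 were differentially expressed, all lower, where 6.97% of all tested genes were. These were *TNC* (tenascin-C, log2 fold change -1.15), *RELN* (reelin, -1.18) and *BGN* (biglycan, -1.37). *VCAN* (versican), a main substrate of ADAMTS1, ADAMTS5 and ADAMTS15, fell from 56.1 to 41.5 FPKM (-0.44, adjusted p = 1.81e-05), and *FBN2* (fibrillin-2) rose from 11.5 to 16.5 FPKM (0.52, adjusted p = 2.20e-05). *ACAN* (aggrecan) and *COMP* (cartilage oligomeric matrix protein) had no read in any library, and *VWF*, the substrate of ADAMTS13, had at most 7.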

How the data were processed

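RNA of 3 TPC-1 and 3 *RRM2*-OE-TPC-1 libraries was sequenced. The authors aligned reads with HISAT2, counted them with featureCounts, normalized by gene length and depth, and deposited FPKM. The submitters' processing notes name HISAT2 2.0.5, featureCounts 1.5.0 and GRCh38.p14. The methods describe poly(A) selection and the labels rRNA removal with RNase R. All 58735 identifiers and positions matched GENCODE 29.

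Whole reads were recovered from the FPKM steps (100% of values within 0.01 read). Replicates were not duplicates. Same-numbered libraries did not deviate together (r -0.055 to -0.006), so numbers were not taken as pairs. limma 3.58.1 in R 4.3.3 (lmFit, eBayes with trend) was applied to log2(FPKM + 0.1) and tested on simulated data, and voom on the recovered reads was an alternative. edgeR's count test was not run. Rate ratios are scaled to the depth used for FPKM and, except for *MMP3*, have exact binomial 95% intervals. These intervals use the summed reads of each group and cover counting error only. That depth was 0.997 to 1.05 times the reads on genes. Python 3.11.15, scipy 1.17.1 and matplotlib 3.10.9 were used.

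Every member is accounted for, with values per library for differentially expressed members, *MMP2* and *MMP9*, whose proteins were blotted in the study. Called list genes are named, except where an item is not reported here, and other list or marker genes by choice after their values were seen. The members, lists and tests were chosen with earlier results of these data known.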

Additional observations from a re-analysis of the deposited data

How the results depend on the processing

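None of the 23 tested members changed direction under any alternative run, and the median log2 fold change of all genes moved by at most 0.06. With a pseudocount of 1, 1 member was higher and 3 were lower, and *MMP1* (0.86), *ADAMTS6* (0.88), *ADAMTS16* (0.80), *ADAMTS13* (-0.74) and *MMP28* (-0.59) fell short of the fold threshold, which a larger pseudocount lowers by construction for low genes. Under it 303 of all genes were higher and 413 lower, against 610 and 950, and with no filter on low values 920 were higher. Besides the pseudocount of 1 and the left-out libraries given with *MMP28*, the 9 differentially expressed members were called in every alternative run. *MMP17* also passed the fold threshold with a pseudocount of 0.01 (-1.01), library totals (-1.04), voom on recovered reads (-1.01), and without TPC-1 replicate 1 (-1.04) or *RRM2*-OE replicate 2 (-1.01). *ADAMTS17* was added with no filter and with an FPKM minimum of 0.1, *MMP3* with no filter and *MMP9* with that minimum. Leaving out each library gave 4 members higher and 5 lower each time, 600 to 632 of all genes higher and 966 to 1003 lower. With the replicate block, 4 members were higher and 5 lower, the same 9, and 1566 of all genes were called against 1560. With voom, 22 members passed the adjusted p against 20, *MMP14* and *MMP16* being added. voom and a filter on means were added after seeing the data. The edgeR and DESeq2 count tests planned for a count table were not run. Genes with under about 10 reads a library are limited by depth.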

Other observations

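Near the members, 2 further transcripts, chosen after their values were seen, differed in level. *ADAMTS9-AS2*, an antisense transcript beside *ADAMTS9*, had 42, 24 and 34 reads in TPC-1 and 7, 12 and 9 in *RRM2*-OE-TPC-1, and was below the filter. *MMP25-AS1* was at 1.50, 1.61 and 1.41 FPKM in TPC-1 and 0.554, 0.532 and 0.537 FPKM in *RRM2*-OE-TPC-1. In both cases the sense gene was lower in FPKM as well. *MMP2-AS1* had no read in any library.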
